A study of Mus musculus with 6 samples.

Results

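The genes described here are 41 genes of DNA replication and S phase, from the factors that mark replication origins to the cyclins that open S phase. They were listed by function, and each was represented by the probe set with 1 gene symbol that had the highest mean over all 6 arrays. All 41 were measured, among 19938 genes in all, and 2 of them, Pcna and Tk1, had a further probe set. The study compared cultured neural stem cells from the third ventricle (3 arrays) with cells from the lateral ventricle (3 arrays). All cultures came from wild-type female C57BL/6 embryos at embryonic day 17.5 and were grown on low-attachment plastic with N2, B27 and the growth factors FGF and EGF, the same for both regions. In both groups the labels name the subventricular zone and describe the arrays as biological replicates. According to the design text 3 females were used. Which array came from which female is not stated. A p-value here therefore reflects variation among the cultures, part of which may be technical.

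Replication starts in 2 steps. In G1 the origin recognition complex, with Cdc6 and Cdt1, loads the Mcm2 to Mcm7 ring on DNA, which licenses the origin. In S phase Cdc45 and the GINS complex turn that ring into a running helicase, polymerases copy both strands behind it, and ribonucleotide reductase and thymidylate enzymes supply the deoxynucleotides. Many of these genes are transcribed late in G1 by E2F factors, once cyclin-dependent kinases have released them from the RB proteins, so in a culture their transcripts mark cells that are in or near S phase. Neural stem cells that leave the cycle, by differentiating or by becoming quiescent, lose them.

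Values are log2 expression after RMA, which subtracts background, equalizes the distributions of the arrays and combines each probe set's probes into 1 value. A difference of 1 on this scale is a 2-fold difference. The median probe set had 5.43 to 5.45 in the third ventricle arrays and 5.44 to 5.47 in the lateral ventricle arrays. Over all genes the third ventricle arrays correlated with each other at 0.995 in each pair, whereas lateral ventricle array 2 reached 0.991 against the third ventricle arrays but 0.980 against array 1 and 0.982 against array 3 of its own region. Lateral ventricle arrays 1 and 3 correlated with each other at 0.990 and with the third ventricle arrays at 0.977 to 0.983. Array 2 thus lay nearer to the third ventricle arrays than to its own group. Which lateral ventricle arrays are typical of their region cannot be told from these values. The differences of all members are given with and without array 2. As a gauge of background, the 95th percentile of 1027 olfactory receptor genes lay at 5.07 to 5.12 in the third ventricle arrays and at 5.03 to 5.16 in the lateral ventricle arrays. Of the members, 35 lay above this gauge in all 6 arrays. The exceptions were Orc1, Mcm3, Pole, Fen1, Chaf1b and E2f1, each below it in lateral ventricle array 1, array 3 or both. Of 10 neural stem cell markers measured, 9 lay above the gauge in all 6 arrays, Prom1 in 5. Of 12 microglial and 10 endothelial or mural markers, 7 each lay below it in all 6 arrays, among them Aif1, P2ry12, Pecam1 and Cdh5.

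The promoters of the members are shown first, with a search for E2F-type sites, since E2F factors transcribe many of these genes. Whether such sites bear on the member values was not tested. RefSeq promoter windows (GRCm38.p6), from 250 bases before the transcript start to 50 bases after it, were found for 34 members, 38 windows in all. Mcm4, Gins1, Gins2, Prim2, Pole, Dscc1 and Ccne2 were not in the table. The E2F-type motif was searched on both strands as TTTCCCGC, TTTCGCGC, TTTGCCGC or TTTGGCGC. It was found in 14 of the 38 windows (36.8%), against 744 of 32851 windows of all genes (2.26%). The 14 belonged to Orc1, Cdc6, Cdt1, Mcm3, Mcm5, Mcm6, Mcm7, Gins3, Pola1, Pold1, Pole2, Rfc3, Lig1 and Hells, and so included 4 of the 5 Mcm2 to Mcm7 genes with a window. Of these, the 6 with the widest range over the arrays were Hells, Mcm3, Mcm6, Pola1, Pole2 and Lig1. Their stretches are printed 5′ to 3′ on the gene's strand with E2F-type matches in capitals, except for Lig1, whose match, TTTCGCGC on the opposite strand, lies 27 to 34 bases into the transcript. Positions count backwards from -1, the base before the transcript start, and forwards from 1.
Hells: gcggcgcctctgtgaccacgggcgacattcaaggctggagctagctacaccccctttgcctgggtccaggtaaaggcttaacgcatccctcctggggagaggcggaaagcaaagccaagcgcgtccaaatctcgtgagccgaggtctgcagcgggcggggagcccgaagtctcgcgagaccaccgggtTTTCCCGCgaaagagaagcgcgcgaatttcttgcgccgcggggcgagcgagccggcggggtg
Mcm3: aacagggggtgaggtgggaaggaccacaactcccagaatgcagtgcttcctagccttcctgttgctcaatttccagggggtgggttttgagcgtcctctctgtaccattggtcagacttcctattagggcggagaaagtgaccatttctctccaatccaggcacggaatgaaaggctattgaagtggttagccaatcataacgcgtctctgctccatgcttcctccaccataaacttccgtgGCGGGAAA
Mcm6: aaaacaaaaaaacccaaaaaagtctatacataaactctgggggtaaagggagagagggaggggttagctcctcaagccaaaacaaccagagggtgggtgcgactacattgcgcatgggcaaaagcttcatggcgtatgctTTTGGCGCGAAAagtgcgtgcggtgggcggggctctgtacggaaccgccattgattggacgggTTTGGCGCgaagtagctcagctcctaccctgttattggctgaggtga
Pola1: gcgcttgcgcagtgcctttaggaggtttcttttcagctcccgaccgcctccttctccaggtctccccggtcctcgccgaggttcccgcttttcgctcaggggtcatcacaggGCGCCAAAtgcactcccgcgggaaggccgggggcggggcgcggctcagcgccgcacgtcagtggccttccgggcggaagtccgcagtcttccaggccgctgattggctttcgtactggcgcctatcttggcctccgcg
Pole2: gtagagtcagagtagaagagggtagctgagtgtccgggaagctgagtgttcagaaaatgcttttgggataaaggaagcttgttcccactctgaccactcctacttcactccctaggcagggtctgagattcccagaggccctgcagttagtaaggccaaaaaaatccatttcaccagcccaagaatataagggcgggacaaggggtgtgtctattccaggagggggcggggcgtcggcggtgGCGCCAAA
The Hells stretch (chr19:38930740-38930989, plus strand) holds 1 match at -62 to -55. The Mcm6 stretch (chr1:128359706-128359955, minus strand) holds 3, of which 2 overlap on opposite strands at -110 to -99 and the other lies at -47 to -40. In Pola1 (chrX:93632156-93632405, minus strand) the match lies at -138 to -131 on the opposite strand. In Mcm3 (chr1:20820286-20820535, minus strand) and Pole2 (chr12:69228173-69228422, minus strand) the printed matches lie just inside the transcript, at 20 to 27 and 11 to 18, both on the opposite strand, and Mcm3 has a second one at 39 to 46.

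Genes that act later, in G2 and mitosis, had other letters in the same window. The E2F-type motif was in 2 of 26 windows of a G2 and mitosis list (7.69%). The letters TTTGAA, 1 form of the CHR element of mitotic promoters, were in 4 of 38 member windows (10.5%), in 19 of 26 windows of the G2 and mitosis list (73.1%) and in 5878 of all windows (17.9%). The CCAAT box, bound by NF-Y, was in 19 of 38 (50%), 21 of 26 (80.8%) and 37.4% of them. None of these motifs contains another, though TTTGGCGC and an opposite-strand TTTCGCGC can overlap. A match describes letters and does not show binding.

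**Figure D1:**
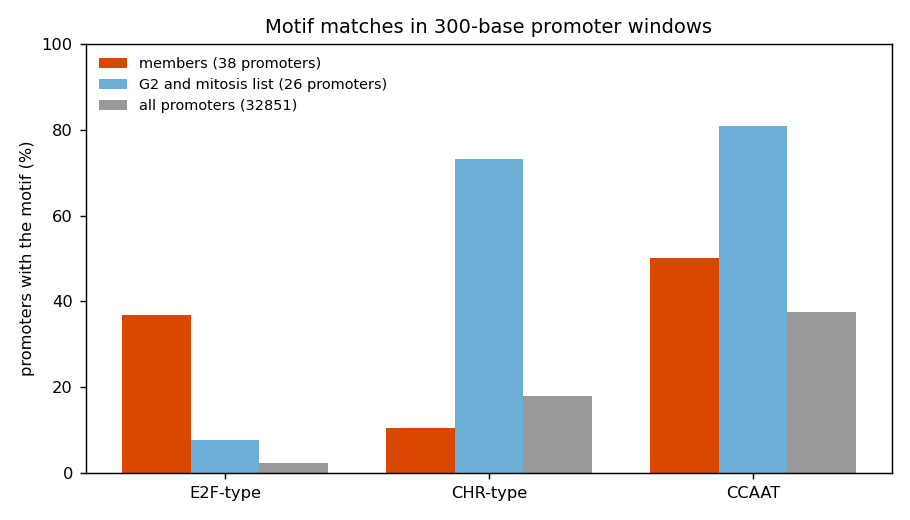
Share of RefSeq promoter windows (%, vertical axis) with an E2F-type, CHR-type or CCAAT motif among members (orange), a G2 and mitosis list (blue) and all windows (grey). The E2F-type motif was in 36.8% of member windows and 2.26% of all windows, and the CHR-type motif in 73.1% of the mitotic list.

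The comparison asks whether replication genes differ between stem cells of these 2 regions. Over all 6 arrays every one of the 41 members had a higher mean in the third ventricle cultures (45.4% of all genes did). The median difference was 0.80, against -0.02 over all genes. None passed an adjusted p of 0.05 in limma (0 of 41; 0.145% of all genes passed as higher and 0.231% in either direction). The lowest adjusted p among the members was 0.262, for Pold1. At an unadjusted p below 0.05 there were 30 of 41, all higher in the third ventricle cultures, where 6.21% of all genes were. The groups overlapped in 36 members and did not in 5, Cdc45, Pold1, Rfc5, Dscc1 and E2f1, a share of the members not far from the 7.77% of all genes that lay without overlap in this direction.

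The spread within the regions was very unequal. In the third ventricle cultures the members had a median SD of 0.11 over 3 arrays, close to the 0.10 of all genes, and none ranged over more than 0.37. In the lateral ventricle cultures their median SD was 0.78, where all genes had 0.15, and 33 of 41 ranged over more than 1. The SD was larger in the lateral ventricle cultures for 41 of 41 members and for 66.8% of all genes. For 40 of 41, all but Cdt1, lateral ventricle arrays 1 and 3 were the 2 lowest of the 6 arrays, which was so for 14.2% of all genes. Lateral ventricle array 2 lay within the range of the third ventricle arrays for 21 members, above it for 15 and below it for 5. Over all 19938 genes these counts were 8231, 6679 and 5028, so its place there was not particular to the members. In these bulk samples fewer cells in S phase and less transcript per cell cannot be told apart.

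**Figure D2:**
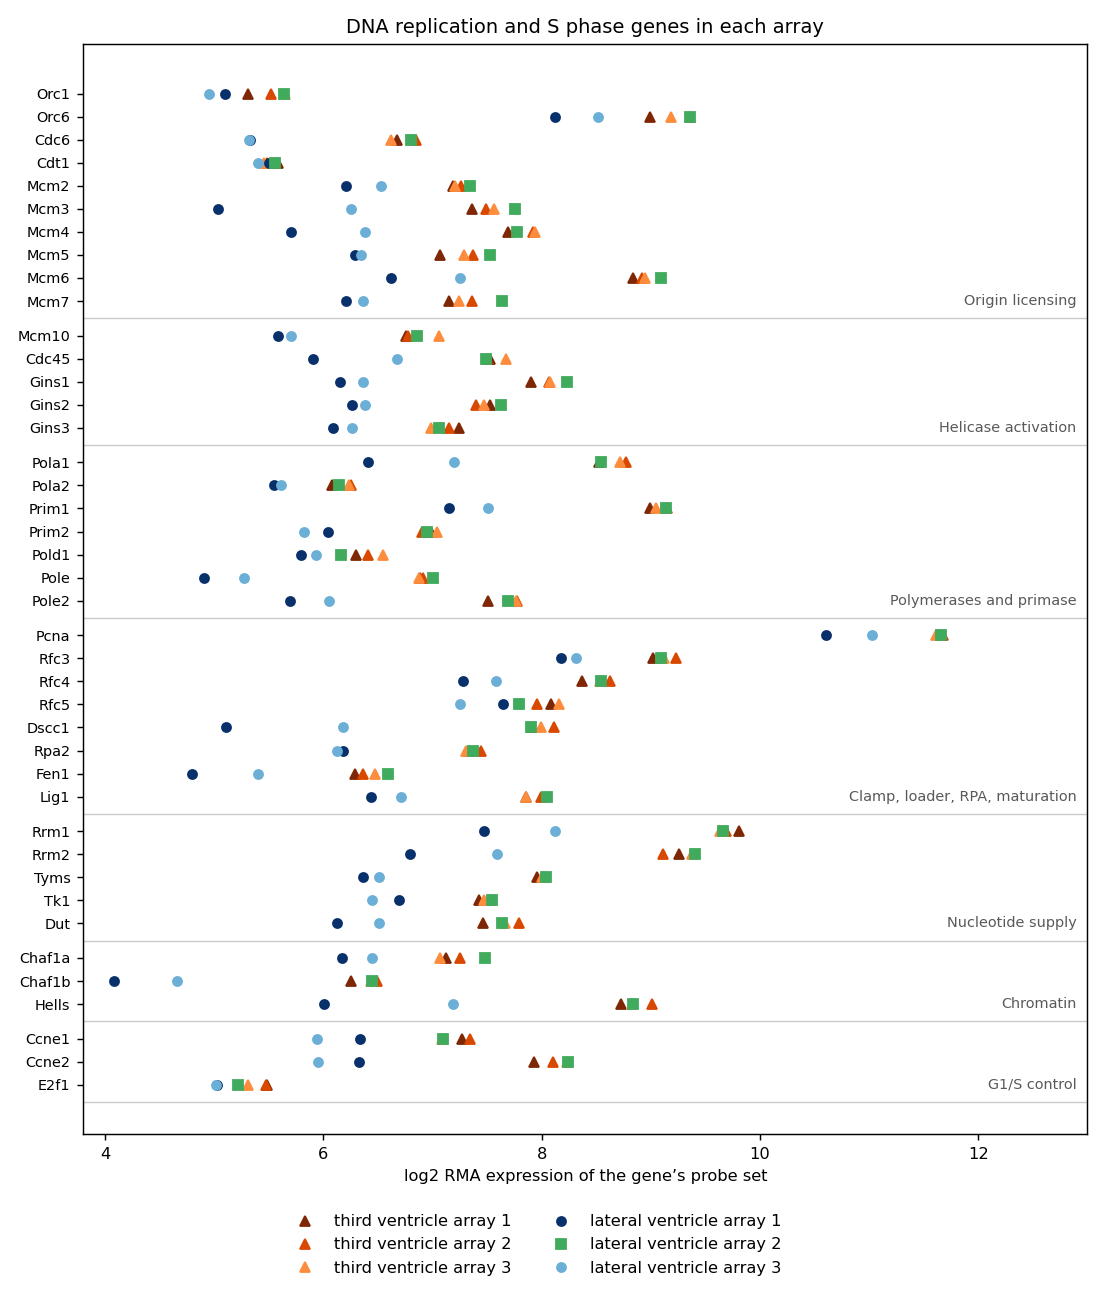
Log2 RMA expression (horizontal axis) of each member in each array, grouped by role, with the third ventricle arrays as triangles and lateral ventricle arrays as circles (arrays 1 and 3) or squares (array 2). The circles lie left of all other symbols in 40 of 41 genes, while the squares lie among or beside the triangles.

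Without lateral ventricle array 2, 38 of 41 members passed in limma, all higher in the third ventricle cultures, where 4.37% of all genes passed as higher. The median difference was then 1.22, a 2.34-fold difference, and the median standard error was 0.13 in place of 0.33. The 3 that did not pass were Cdt1 (adjusted p = 0.817), Orc1 (adjusted p = 0.0626) and E2f1 (adjusted p = 0.0531), of which Orc1 and E2f1 had an unadjusted p below 0.05 (10.3% of all genes did as higher). This fit sets lateral ventricle arrays 1 and 3 alone against the third ventricle arrays, and it was singled out with the level of array 2 known. Set against only lateral ventricle array 2, which leaves that region without replicates, the members had a median of -0.04, with values from -0.38 for Mcm7 to 0.28 for Rfc5, 15 of 41 positive, and 0 past the threshold (2 at an unadjusted p below 0.05, where 12.2% of all genes were). Leaving out lateral ventricle array 1 or array 3 instead left 0 of 41 past the threshold, with medians of 0.55 and 0.64, where 0.0752% and 0.0602% of all genes passed as higher. Leaving out array 1, 2 or 3 of the third ventricle also left 0 of 41, where 0.015%, 0.01% and 0.01% of all genes passed as higher.

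**Figure D3:**
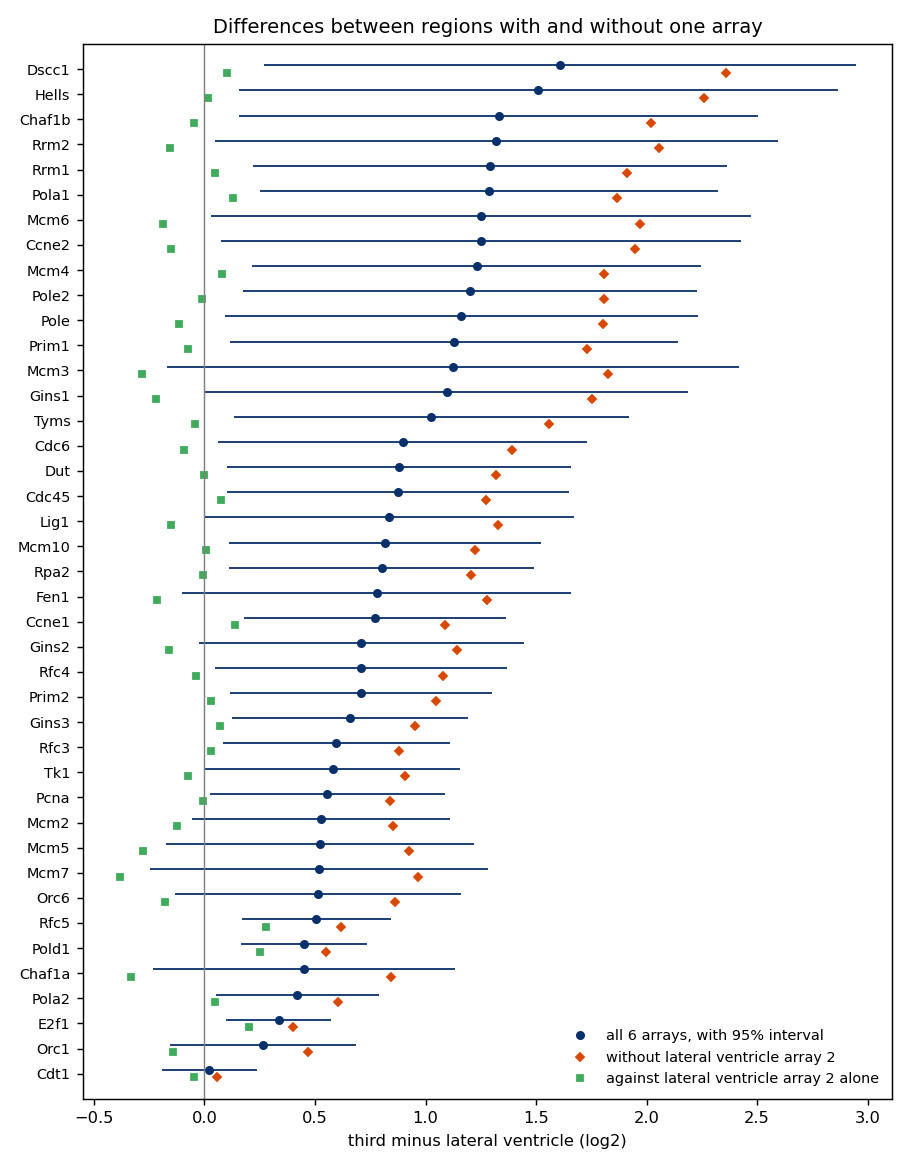
Difference of the third minus the lateral ventricle on the log2 scale (horizontal axis) for each member, over all 6 arrays with 95% intervals (blue), without lateral ventricle array 2 (orange) and against that array alone (green). The orange symbols have a median of 1.22 and the green ones a median of -0.04, and the blue intervals span much of the distance between them.

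Origin licensing genes ran from Cdt1, with a difference of 0.02, to Mcm6, with 1.25. Mcm6, a subunit of the licensed ring, had 8.84, 8.92 and 8.95 in the third ventricle arrays, against 6.62, 9.09 and 7.25 in lateral ventricle arrays 1, 2 and 3. Array 2 lay above the third ventricle arrays and the other lateral arrays far below them, and the difference was 1.25 (SE 0.53, adjusted p = 0.385). Mcm3 had 7.36, 7.49 and 7.57 in the third ventricle arrays and 5.03, 7.75 and 6.26 in the lateral ventricle arrays, a difference of 1.12 (SE 0.56), and lay just below the background gauge in lateral ventricle array 1. Mcm4 had 7.69, 7.92 and 7.94, against 5.71, 7.77 and 6.38 in the lateral ventricle arrays.

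The other subunits of the ring, Mcm2, Mcm5 and Mcm7, varied less. Mcm2 had 7.19, 7.26 and 7.21 in the third ventricle arrays, against 6.20, 7.34 and 6.53 in the lateral ventricle arrays. The third ventricle mean lay above lateral ventricle array 1 by 1.01 for Mcm2, 0.96 for Mcm5 and 1.04 for Mcm7, and by 2.44, 2.14 and 2.28 for Mcm3, Mcm4 and Mcm6. Mcm2, Mcm5 and Mcm7 thus lay near a 2-fold distance and Mcm4 and Mcm6 at 4.42-fold and 4.87-fold, although their products assemble in 1 ring. The distance of Mcm3 has no firm size, since its level in that array lay below the gauge. This division was noticed after the values were seen, and probe sets differ in how they respond to RNA. Over all arrays Mcm2, Mcm4, Mcm5 and Mcm7 differed by 0.53, 1.23, 0.52 and 0.52. When lateral ventricle array 2 was left out, the differences of Mcm2 to Mcm7, in the order of their numbers, were 0.85, 1.83, 1.81, 0.92, 1.97 and 0.97.

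Among the loaders, Cdc6, which brings the ring to the origin, had 6.67, 6.84 and 6.62 in the third ventricle arrays, against 5.33, 6.80 and 5.32 in the lateral ventricle arrays (difference 0.90, SE 0.36). Its levels in lateral ventricle arrays 1 and 3 were nearly equal, at 2.61-fold and 2.63-fold below the third ventricle mean. Cdt1, its partner, had 5.59, 5.49 and 5.45, against 5.51, 5.56 and 5.40, so that all 6 arrays lay within 0.19 (difference 0.02, 95% interval -0.19 to 0.24). These levels lay only a little above the background gauge, where RMA compresses differences, so a change of Cdt1 could be missed. The origin recognition subunit Orc6 differed by 0.51 (SE 0.28) and Orc1, the largest subunit, by 0.26 (SE 0.18). Once array 2 was left out, the differences of Cdc6, Cdt1, Orc6 and Orc1 were 1.39, 0.06, 0.86 and 0.47.

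The helicase activators all lay low in lateral ventricle arrays 1 and 3. Cdc45, which joins the ring to GINS, had 7.53, 7.50 and 7.67 in the third ventricle arrays, against 5.90, 7.49 and 6.68 in the lateral ventricle arrays. Its groups did not overlap, but array 2 missed the lowest of the third ventricle values by less than 0.01, and the difference of 0.88 had an adjusted p of 0.356. Gins1 had 7.90, 8.07 and 8.07, against 6.16, 8.23 and 6.37, the widest range of the 3 GINS subunits among the members. Gins2 differed by 0.71, Gins3 by 0.66 and Mcm10, which helps the helicase start, by 0.82. Without lateral ventricle array 2 all 5 activators passed, where 4.37% of all genes passed as higher. The differences of Cdc45, Gins1, Gins2, Gins3 and Mcm10 were then 1.28, 1.75, 1.14, 0.95 and 1.22.

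Polymerase alpha and primase form 1 complex that starts each new strand. Pola1, the catalytic subunit of the priming polymerase alpha, had 8.53, 8.77 and 8.72 in the third ventricle arrays, against 6.41, 8.54 and 7.19 in the lateral ventricle arrays, a difference of 1.29 (SE 0.45, adjusted p = 0.338). Pola2, its regulatory subunit, had 6.08, 6.25 and 6.24, against 5.55, 6.14 and 5.62, a difference of 0.42 (SE 0.16). The catalytic primase chain Prim1 differed by 1.13 and its partner Prim2 by 0.71. These 4 genes differed by 1.87, 0.61, 1.73 and 1.05 without lateral ventricle array 2.

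Polymerase epsilon copies the leading strand. Its catalytic chain Pole had 6.89, 6.91 and 6.88 in the third ventricle arrays, against 4.91, 7.01 and 5.28 in the lateral ventricle arrays, and lay below the gauge in lateral ventricle array 1. Pole differed by 1.16 and Pole2, a further subunit, by 1.20, and without array 2 by 1.80 and 1.81. Pold1, the catalytic chain of the lagging strand polymerase delta, had 6.30, 6.41 and 6.55, against 5.80, 6.17 and 5.93. Its groups did not overlap, and since array 2 lay below the third ventricle arrays, its difference of 0.45 (95% interval 0.17 to 0.73) moved only to 0.55 without that array.

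Among clamp, loader and maturation genes, Pcna, the sliding clamp, had 11.66, 11.68 and 11.62 in the third ventricle arrays, against 10.60, 11.66 and 11.03 in the lateral ventricle arrays. Its second probe set differed by 0.58, where the first differed by 0.56. The largest difference of all members was that of Dscc1, a subunit of the loader that also serves sister chromatid cohesion, with 7.91, 8.11 and 7.99 against 5.11, 7.90 and 6.18. The third ventricle mean lay 7.44-fold above lateral ventricle array 1, 3.54-fold above array 3 and 0.10 above array 2. In array 1 Dscc1 lay just above the gauge of 5.03, so its distance from that array has no firm size. The loader subunits Rfc3, Rfc4 and Rfc5 differed by 0.60, 0.71 and 0.50. Pcna, Dscc1, Rfc3 and Rfc4 differed by 0.84, 2.36, 0.88 and 1.08 without lateral ventricle array 2, where Dscc1 had 1.61 over all arrays.

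Rfc5 had another pattern than its neighbours. It had 8.08, 7.95 and 8.16 in the third ventricle arrays, against 7.64, 7.79 and 7.25 in the lateral ventricle arrays, so that all lateral arrays lay below all the third ventricle arrays and array 3 was the lowest (difference 0.50, SE 0.15, adjusted p = 0.287). Rpa2, a subunit of the single-strand binding protein, differed by 0.80 (SE 0.30). The flap nuclease Fen1 differed by 0.78 (SE 0.38) and Lig1, the ligase that seals lagging strand fragments, by 0.83 (SE 0.36). Rfc5, Rpa2, Fen1 and Lig1 differed by 0.62, 1.21, 1.28 and 1.33 without lateral ventricle array 2.

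All 5 nucleotide supply genes passed without lateral ventricle array 2 (4.37% of all genes passed as higher), and none over all arrays. Rrm2, the regulated subunit of ribonucleotide reductase, had 9.26, 9.11 and 9.38 in the third ventricle arrays, against 6.79, 9.40 and 7.59 in the lateral ventricle arrays, a difference of 1.32 (SE 0.55, adjusted p = 0.383). Rrm1, the large subunit, had 9.81, 9.69 and 9.63, against 7.48, 9.66 and 8.12, a difference of 1.29. Tyms, thymidylate synthase, differed by 1.03, and the dUTPase Dut by 0.88. Tk1, which salvages thymidine, differed by 0.58, and by 0.38 in its second probe set. With array 2 left out, Rrm2, Rrm1, Tyms, Dut and Tk1 differed by 2.06, 1.91, 1.56, 1.32 and 0.91.

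The chromatin genes Hells and Chaf1b were among those with the widest ranges. Hells, a chromatin remodeller needed for DNA methylation, had 8.73, 9.01 and 8.83 in the third ventricle arrays, against 6.01, 8.84 and 7.18 in the lateral ventricle arrays, with array 2 inside the third ventricle range (difference 1.51, SE 0.59, adjusted p = 0.360). Chaf1b had 6.25, 6.49 and 6.44, against 4.08, 6.44 and 4.66, and lay below the gauge in lateral ventricle arrays 1 and 3, so its distance from those arrays has no firm size. Chaf1a, the large subunit of the same histone chaperone CAF-1, differed by 0.45 (SE 0.30) and Chaf1b by 1.33 (SE 0.51). Hells, Chaf1b and Chaf1a differed by 2.26, 2.02 and 0.84 without lateral ventricle array 2.

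The G1/S regulators were the one role in which lateral ventricle array 1 was the lowest array for no member. Array 3 was the lowest for Ccne1 and Ccne2, while E2f1 lay below the gauge in both, where its order is not firm. Ccne2, a cyclin E, had 7.93, 8.10 and 8.23 in the third ventricle arrays, against 6.32, 8.24 and 5.95 in the lateral ventricle arrays (difference 1.25, SE 0.51, adjusted p = 0.376). Ccne1 had 7.27, 7.34 and 7.08, against 6.34, 7.09 and 5.95. E2f1, the transcription factor, had 5.49, 5.47 and 5.31, against 5.03, 5.22 and 5.02, all close to the background gauge, and its groups did not overlap (difference 0.33, 95% interval 0.10 to 0.57, adjusted p = 0.299). Ccne2, Ccne1 and E2f1 differed by 1.95, 1.09 and 0.40 without lateral ventricle array 2, where Ccne1 had 0.77 over all arrays.

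Across all members the third ventricle mean lay at least 2-fold above lateral ventricle array 1 in 29 of 41 and above array 3 in 24 of 41, where 1.86% and 1.36% of all genes did, and above array 2 in 0 of 41 (0.206% of all genes). It lay at least 4-fold above array 1 in 9 members (0.386% of all genes), above array 3 in 1, Ccne2 (0.0351%), and above array 2 in 0 (0.0301%). Lateral ventricle array 1 was the lowest array for 31 members and array 3 for 10, which were Orc1, Cdc6, Cdt1, Prim2, Rfc5, Rpa2, Tk1, Ccne1, Ccne2 and E2f1. Over all 19938 genes, array 1 was the lowest for 4642 and array 3 for 3170. Orders and distances of genes below the gauge, among them Mcm3 and Chaf1b in array 1 and E2f1 in both, are not firm. In the G2 and mitosis list array 1 was the lowest for 28 of 29 genes, with Cdc20 as the exception. The median distance from the third ventricle mean was 1.28 for array 1 and 1.15 for array 3 among members, and 2.00 and 1.42 in the G2 and mitosis list. Members with an E2F-type motif (14) had medians of 1.21 and 1.04, and the 20 with a window but no match had 1.20 and 1.00. Only the exact forms listed above were searched, so a window without a match may still hold an E2F site. The part of E2F in the member values was not tested.

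**Figure D4:**
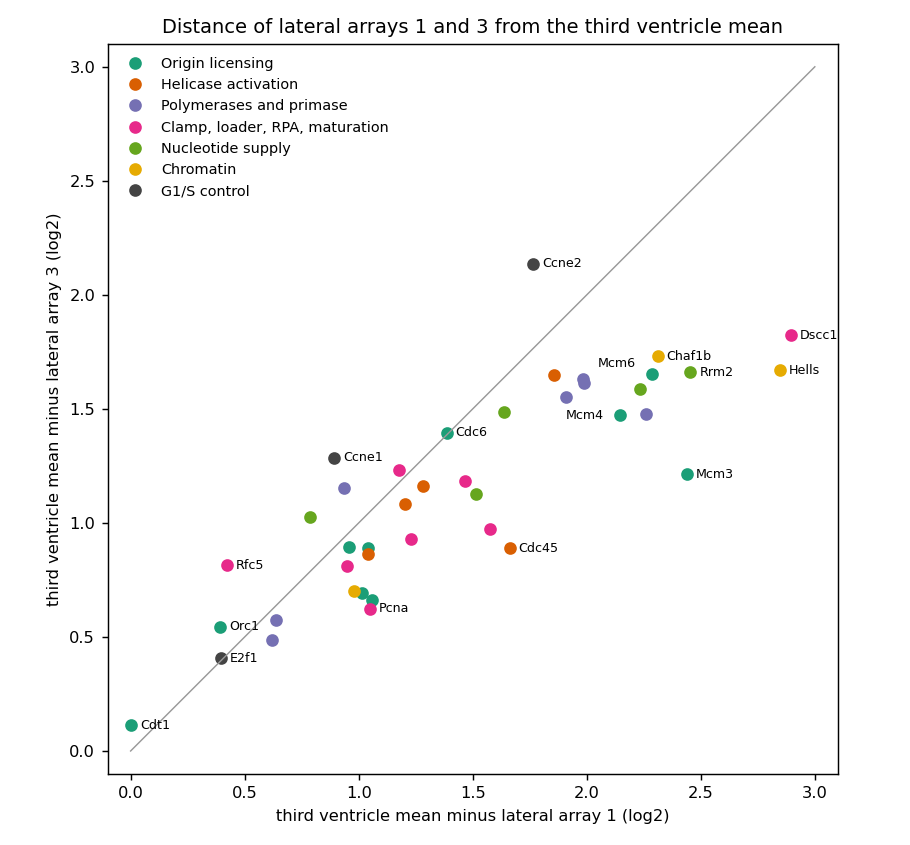
The third ventricle mean minus lateral ventricle array 1 (horizontal axis) against the third ventricle mean minus lateral ventricle array 3 (vertical axis), both log2, 1 point per member, coloured by role, with the line of equality. Points below the line, 31 of 41, were lower in array 1. The points of Ccne1, Ccne2 and E2f1 lie on or above it.

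Other replication genes, in 4 lists of 72 measured genes, varied the same way but by less. Over all arrays 0 of 72 passed in limma, and 21 were higher and 1 lower at an unadjusted p below 0.05 (12.6% of all genes were either). On average 63 lay higher in the third ventricle cultures (45.4% of all genes did), and the median was 0.30. With lateral ventricle array 2 left out, 37 of 72 passed as higher and 1 as lower (4.37% and 3.88% of all genes did), with a median of 0.48. The 1 that was lower was Pold4, the small subunit of polymerase delta, at -0.55 (adjusted p = 0.0197 in limma), against -0.42 over all arrays. By list, 12 of 21 further licensing and fork genes passed as higher, 7 of 17 polymerase and clamp genes, 6 of 19 nucleotide genes and 12 of 15 chromatin genes.

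Other subunits of the same complexes spanned a wide range of differences. Orc3, an origin recognition subunit, had 9.30, 9.27 and 9.29 in the third ventricle arrays, against 9.30, 9.29 and 9.37 in the lateral ventricle arrays, a range of 0.09 over all 6. Orc2 differed by 0.16 and the GINS subunit Gins4 by 0.30, while Clspn, an adaptor of the replication checkpoint, had 7.32, 7.52 and 7.30 against 5.29, 7.79 and 5.72. Tipin, a fork protection factor, differed by 0.86, the kinase activator Dbf4 by 0.88 and Ticrr by 0.96. Of the RPA subunits, Rpa1 had 7.54, 7.62 and 7.47, against 6.19, 7.36 and 6.10, a difference of 0.99, whereas Rpa3 differed by 0.26. Atad5 differed by 0.78, Rnaseh2c by 0.81, Rfc2 by 0.82, Rnaseh2b by 0.29, Pole3 by 0.14 and the topoisomerase Top1 by 0.13, and 0 of these passed over all arrays.

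Among the other nucleotide genes, Nme1, Paics, Cmpk1 and Gmps had the highest mean signals and differed by 0.22, 0.16, 0.04 and 0.30. The lowest p-values without lateral ventricle array 2 were those of Samhd1 (0.94), Dck (0.82), Umps (1.12) and Dtymk (0.65), against 0.67, 0.50, 0.72 and 0.47 over all arrays. Among the chromatin genes, the histone chaperone Nasp had 10.75, 10.96 and 10.74 in the third ventricle arrays, against 9.69, 10.90 and 9.56 in the lateral ventricle arrays. The maintenance methyltransferase Dnmt1 differed by 0.68, Mms22l by 1.07, Lmnb1 by 0.60, Ezh2 by 0.44, Supt16 by 0.39 and Rbbp7 by 0.31.

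E2F, RB and cyclin genes varied unequally. Over all arrays 0 of 28 passed (7 higher at an unadjusted p below 0.05, where 6.21% of all genes were) and the members of the list had a median of 0.28. With lateral ventricle array 2 left out, 13 of 28 passed as higher (4.37% of all genes did), with a median of 0.45. E2f8, a repressor of the E2F family, had 7.64, 7.69 and 7.64 in the third ventricle arrays, against 5.57, 7.76 and 5.98 in the lateral ventricle arrays. The RB relative Rbl1 differed by 0.94, Lin9 of the MuvB complex by 0.91 and the S phase cyclin Ccna2 by 1.03. Cdk4 differed by 0.13, Tfdp1 by 0.32 and Myc by 0.05. Ccnd2, a G1 cyclin, had its lowest level in lateral ventricle array 1, with 10.20, 10.39 and 10.34 in the third ventricle arrays, against 8.46, 10.16 and 9.97 in the lateral ventricle arrays, all below the third ventricle arrays, and passed neither over all arrays (adjusted p = 0.449) nor without array 2 (adjusted p = 0.115).

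In the G2 and mitosis list, as in most members, lateral ventricle arrays 1 and 3 lay below all other arrays, here in all 29 genes. Array 2 lay within the third ventricle range in 10 of them, above it in 7 and below it in 12. Among the 41 members these counts were 21, 15 and 5. The 29 genes of this list all had a positive difference (45.4% of all genes did), with a median of 1.15. Over all arrays 0 passed, and 29 were higher at an unadjusted p below 0.05 in limma (6.21% of all genes were). Without lateral ventricle array 2 all 29 passed (4.37% of all genes passed as higher), with a median of 1.68. Top2a, the topoisomerase that untangles chromosomes, had 11.04, 10.95 and 11.03 in the third ventricle arrays, against 8.87, 11.06 and 9.58 in the lateral ventricle arrays, so array 2 again lay with the third ventricle. The condensin subunits Smc4 and Smc2 differed by 0.63 and 1.08, and the checkpoint protein Mad2l1 by 1.09. Without array 2 the lowest p-values were those of the centromeric histone Cenpa (1.68), the survivin gene Birc5 (1.68), the kinetochore gene Nuf2 (2.14) and the kinesin Kif20a (1.40). The groups did not overlap in 12 of the 29 (7.77% of all genes lay without overlap in this direction). CDK inhibitor and quiescence genes had a median of 0.18, and 0 of 17 passed (5 higher and 1 lower at an unadjusted p below 0.05, where 12.6% of all genes were either). Cdkn1b differed by -0.10, Ccng1 by 0.26, Btg2 by 0.06 and Trp53inp1 by 0.03. Without lateral ventricle array 2, 2 of 17 passed, both higher in the third ventricle cultures, where 4.37% of all genes passed as higher. They were Cdkn2c (1.21) and Cdkn2d (0.76), which encode inhibitors of the cyclin D kinases.

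**Figure D5:**
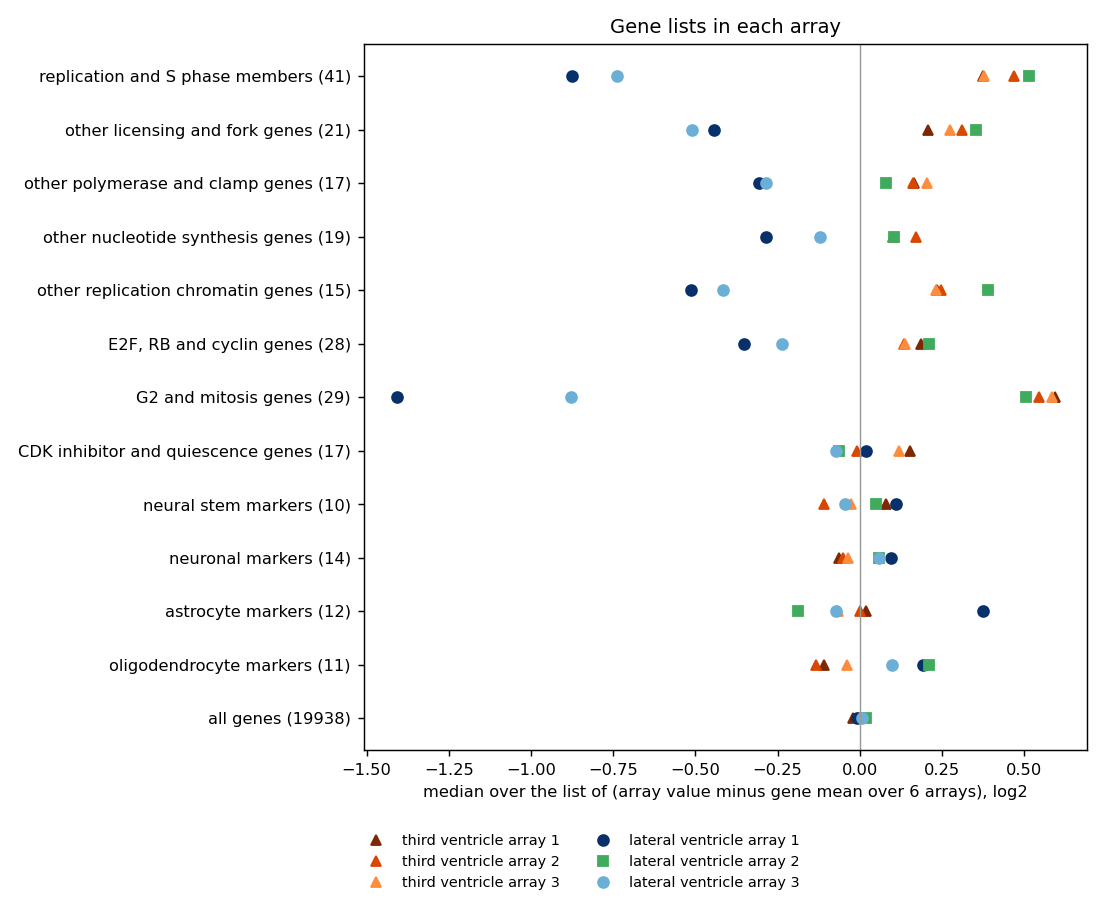
Median over each gene list of the array value minus the gene's mean over 6 arrays (log2, horizontal axis), with the number of genes in brackets and symbols as in the plot of member levels. Lateral ventricle arrays 1 and 3 lie at -0.88 and -0.74 for the members, while array 2 lies at 0.52 and the third ventricle arrays at 0.37 to 0.47.

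Cell type markers were set beside the member values array by array. The summed linear signal of 10 neural stem cell markers lay between 12727 and 14406 in the third ventricle arrays and between 12668 and 13513 in the lateral ventricle arrays, and 0 of 10 passed over all arrays. That sum was weighted towards the brightest, Fabp7, and 3 of 10 were higher in the third ventricle cultures on average. Without lateral ventricle array 2, 1 of 10 passed as higher, Nes (0.86, adjusted p = 0.0103 in limma), where 4.37% of all genes did. Nestin, encoded by Nes, had 7.51, 7.67 and 7.54 in the third ventricle arrays, against 6.47, 7.70 and 6.95 in the lateral ventricle arrays, the same order as most members. Fabp7 differed by 0.05, Vim by 0.19, Sox2 by -0.26 and Slc1a3 by -0.12.

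Astrocyte markers summed to 4284 to 4829 in the third ventricle arrays, against 6338, 3183 and 3956 in lateral ventricle arrays 1, 2 and 3. The sum was weighted towards the brightest, among them Apoe and Sparcl1, which had unlike patterns. Apoe, a lipid carrier of astrocytes, had 8.81, 8.13 and 7.96 in the third ventricle arrays, against 11.11, 8.27 and 9.58 in the lateral ventricle arrays, highest where the members were lowest. Sparcl1 had 10.80, 10.86 and 10.59, against 10.24, 9.29 and 9.89, lowest in array 2. Sparcl1 differed by 0.94 and Slc4a4 by 0.65, and 4 of 12 markers were higher on average. Gfap lay below the gauge in all 6 arrays. None of the 12 passed over all arrays, and without array 2 Apoe passed as lower and Sparcl1 and Slc4a4 as higher. Neuronal markers summed to 2800 to 3168, against 2735 to 2875, and 0 of 14 passed, with Stmn2, Syt1 and Neurod6 below the gauge throughout. At an unadjusted p below 0.05 in limma, 5 were lower and 1 was higher in the third ventricle cultures, where 12.6% of all genes were either. The sum was weighted towards the brightest, Map2 and Gap43, which differed by 0.24 and 0.60, though only 5 of 14 were higher on average. Dcx, of migrating neuroblasts, averaged 5.36 ± 0.41 in the third ventricle arrays and 6.99 ± 0.65 in the lateral ventricle arrays (SD, n = 3 each, limma adjusted p = 0.136), and without array 2 both Dcx and Tubb3 passed as lower.

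Oligodendrocyte lineage markers summed to 1190 to 1235 in the third ventricle arrays, against 1702, 1655 and 1486 in the lateral ventricle arrays, and 1 of 11, Pdgfra, fell over all arrays (-1.79, adjusted p = 0.00707 in limma, where 0.0853% of all genes passed as lower). Without array 2, Sox10 and Gpr17 passed as lower too. Here lateral ventricle array 2 (8.25 for Pdgfra) lay with arrays 1 and 3 (8.78 and 8.53), unlike its place among the members. Microglial markers summed to 300.3 to 331 in the third ventricle arrays and 321 to 338 in the lateral ventricle arrays. Endothelial and mural markers summed to 290 to 356 in the third ventricle arrays and 229 to 286 in the lateral ventricle arrays. That sum was weighted towards the brightest, Acta2, which differed by 0.77, and 6 of 10 were higher on average. Ependymal and choroid markers had 305 to 339 against 298 to 319 in the lateral ventricle arrays, and 3 erythroid markers 87.6 to 97.1 against 83.7 to 95.8 there. In each of these 4 lists 0 passed over all arrays (2 endothelial or mural and 1 ependymal or choroid at an unadjusted p below 0.05, where 12.6% of all genes were). The part of these cell types in the member values was not tested.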

How the data were processed

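Total RNA was extracted with Trizol and amplified from very small inputs with the NuGEN WT-Ovation Pico system before hybridization, per the labels' protocols, which can add spread between arrays. The authors deposited RMA values on a log2 scale, 1 per probe set. Their software was Affymetrix Expression Console 1.1 according to the submitters' processing notes, and no further setting is named. RMA compresses differences of dim probe sets. The table held 35556 probe sets, of which the platform annotation gave 1 gene symbol to 21789, several to 1621 and none to 12146, which left 19938 genes. No filter was set on dim genes.

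Regions were compared with limma 3.58.1 in R 4.3.3 (lmFit and eBayes), with p-values adjusted by Benjamini-Hochberg across the 19938 genes and called at 0.05. With 3 arrays a region, the smallest two-sided p of an exact permutation test is 0.1. Precision is limited by the number of arrays. The fit was tested on simulated data with known changes. Members and gene lists were chosen with earlier results of these data known. Named are all members and, of each other list, genes past the threshold, the 4 with the highest mean where none passed, and up to 4 with the lowest p without lateral ventricle array 2. In the neuron, astrocyte, microglial, vascular, ependymal and erythroid lists only part of these are printed. Pold4, Cdc20, Prom1 and Gfap are named as single exceptions to a count. Markers below the gauge and members of motif groups are named with their counts. Alternatives covered the probe set, dim genes, normalization, the prior, array weights, the replicate number as a block, and arrays left out. The main fit did not pair arrays by replicate number, since no label ties a number to an animal.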

Additional observations from a re-analysis of the deposited data

How the results depend on the processing

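The members numbered 0 past the threshold, over all arrays, with the mean of all probe sets, without the lowest 40% of genes, with quantile normalization again, cyclic loess, a robust and trended prior, array weights or the replicate block. The lowest adjusted p of a member under these lay between 0.0712 (array weights) and 0.262. Leaving out 1 array gave 0 to 38 members past the threshold, 38 without lateral ventricle array 2 and 0 in the other 5 fits. The median member difference lay between 0.55 and 1.22 when 1 array was left out, was 0.98 with array weights, and was -0.041, with 15 of 41 members positive, against lateral ventricle array 2 alone; the cause was not tested. Of single members, Cdt1 turned to -0.02 without array 1 of the third ventricle and again without lateral ventricle array 3, and never passed. Over all genes 46 passed, against 158 with array weights and 4 to 1644 when 1 array was left out. With the replicate number as a block 0 of 41 members and 57 of all genes passed. Deviations from the group means correlated at 0.24, 0.11 and 0.07 between arrays of the same number, and each array correlated best with its own number, a hint from the data and not from the design. The fit against lateral ventricle array 2 alone assumes that it varies like the third ventricle arrays. Levels at or below the background gauge have no firm order.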
